A study of Saccharomyces cerevisiae with 27 samples.

Results

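The cytoplasmic ribosomal protein genes of budding yeast encode the proteins of the large and small ribosomal subunits and of the P stalk of the large subunit. They were taken by symbol as every gene named RPL or RPS with a number and an optional A or B, plus RPP0, RPP1A, RPP1B, RPP2A and RPP2B, with 1 Affymetrix probe set per gene (the one with the highest mean). Of 137 such genes in the RefSeq gene table, 127 had a named probe set among the 5434 genes measured. The other 10 were not analysed here. The 127 comprised 70 large-subunit, 52 small-subunit and 5 stalk genes. By copy, they were 54 A copies, 55 B copies and 18 single-copy genes, with both copies measured in 50 pairs.

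Messenger RNA had been measured on 27 Yeast Genome 2.0 arrays of haploid W303 cells, either wild type or carrying scc2-4, an allele of the gene for a subunit of the cohesin loader. All cells grew in YEP with raffinose at 2%, were arrested in G2/M, warmed, given galactose 30 min later and harvested 90 min after that. Zymolase, which digests the yeast cell wall, was applied to every sample at 30 °C for 1 h before RNA isolation. The galactose switches on HO, an endonuclease that cuts DNA once where its recognition site is present. The wild type had 7 arrays without and 6 with a break, and scc2-4 had 7 without and 7 with a break, over 2 experiments with 3 or 4 biological replicates each. Galactose is given for every group, so break and no break are read here as strains with and without the site. The labels place the break on chromosome VI in one field and on chr.iv in another. GAL1 read 14.0 to 14.1 on the log2 scale on the 27 arrays, and the HO transcript 13.4 to 13.7. The SCC2 transcript read 9.07 to 9.89, but since scc2-4 acts on the protein it does not check the genotype.

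Ribosomal protein genes are among the most highly transcribed genes of a growing yeast cell and are controlled together. Rap1 binds most of their promoters and Fhl1 and Ifh1 act there with it, under the TOR and protein kinase A pathways, so that stress or poor nutrients lower the whole set. Most of these proteins are encoded by a pair of paralogues left from an ancient genome duplication, whose proteins are identical or nearly so but whose promoters and introns differ. Several proteins restrain their own genes: Rpl30 blocks splicing of its own transcript, Rpl22 that of RPL22B, and Rps28 promotes decay of the RPS28B transcript.

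The deposited values are log2 expression values and fall into 3 sets by the distribution of all values on an array: experiment 1, wild type in experiment 2, and scc2-4 in experiment 2. Arrays of 1 set, with their values sorted, differed from each other by 0.00818 to 0.0302 on average, and arrays of different sets by 0.147 to 0.425. Array medians were 10.2 in experiment 1, 9.76 to 9.79 for wild type in experiment 2 and 10.01 to 10.04 for scc2-4 in experiment 2. A genotype difference of experiment 2 therefore cannot be told apart from one of processing. The set was a term of the limma model, the level of the genotype difference rests on experiment 1, and effects of the break use both experiments. Changes below are log2 differences with the standard error of that fit, and a gene was called at a Benjamini-Hochberg adjusted p under 0.05 over all 5434 genes.

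The members were high on every array: their median percentile by mean level was 96.7 among all genes, and 126 lay above the median gene. Their mean levels ran from 9.60 to 14.0 with a median of 13.2. In experiment 1 the median over the 127 members was 13.09, 13.08 and 13.23 on the 3 wild-type arrays without a break, and 13.02, 13.07 and 13.11 on the 3 scc2-4 arrays without a break. These groups overlapped. With a break, experiment 1 gave 13.08, 13.19 and 13.19 in wild type and 13.05, 13.15 and 13.19 in scc2-4, which also overlapped. In experiment 2 wild type read 13.09 to 13.20 without and 13.05 to 13.10 with a break, while scc2-4 read 13.44 to 13.48 without and 13.37 to 13.42 with a break. The 8 scc2-4 arrays of experiment 2 were thus above every other array, and they are also the arrays with their own processing set. The SD of the member median within a group and experiment was 0.0511 over both experiments. Deviations of the member median from its group mean ran from -0.0823 to 0.096 in experiment 1 and from -0.0605 to 0.043 in experiment 2.

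**Figure D1:**
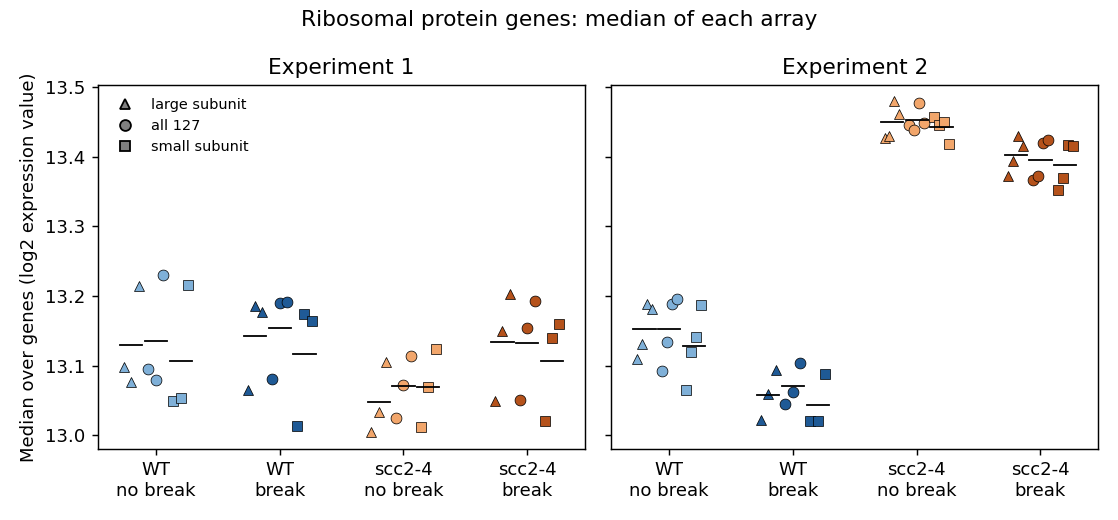
Median log2 expression value of the large-subunit genes (triangles), all 127 ribosomal protein genes (circles) and the small-subunit genes (squares) on each array, by group, with a line at the group mean. In experiment 1 the 4 groups overlap between 13.02 and 13.23 for all members, and in experiment 2 the 8 scc2-4 arrays lie between 13.37 and 13.48.

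The members moved together from array to array within a group. After the mean of each group and experiment was removed, a member's deviations over the 27 arrays had a median correlation of 0.882 with the mean of the other members, against -0.0172 for genes outside the list. The correlation was over 0.5 for 123 members. RPL15B, one copy of a large-subunit core protein, ran against the others with a correlation of -0.601. RPL41A, which encodes a very short large-subunit peptide, had 0.183, RPP1A of the stalk 0.38 and RPL3, a protein near the peptidyl transferase centre, 0.381. The median correlation was 0.809 between paralogues and 0.766 between any pair of members. These correlations share the array and its normalisation and are given as a description.

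Without a break, 29 of the 127 members (22.8%) fell in scc2-4 relative to wild type by limma and none rose, while 17.9% of all genes were lower and 20.7% higher. None was higher in experiment 1 alone either (15.4% of all genes), and 39 members had an unadjusted p under 0.05 in either direction, as did 47.4% of all genes. The median change of the members was -0.06 against 0.0029 for all genes, and 109 of 127 changes were below 0. Since the members share array-to-array variation, these signs are not independent of each other. The called falls were small, from 0.061 to 0.286 on the log2 scale, or 1.04- to 1.22-fold. Of the 29, 20 had no overlap between the 3 arrays of each genotype in experiment 1. The calls rest on those same arrays, so this describes the called members and is not separate support. In that experiment 30 members (23.6%) had scc2-4 below wild type with no overlap, beside 21.2% of all genes. Leaving out single arrays of experiment 1 lowered the count of 29 to 10 (replicate 3 of wild type or replicate 1 of scc2-4) or 11 (replicate 2 of scc2-4).

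The direction depended on the experiment. In experiment 2 alone the median member change was 0.28, and 120 members were called higher and none lower, with 61.1% and 23.8% of all genes by the same rule. Of the 29 members called lower, 28 were above 0 in experiment 2. A model with experiment as a plain additive term, which ignores the processing sets, called 66 members higher and 1 lower (46.6% and 19.5% of all genes). Experiment 1 alone, with its error taken from its own 12 arrays, called 3 lower (13.4% of all genes). The 29 calls use 1 error per gene from all 27 arrays, including experiment 2, where the member median deviated less within groups. Across the 127 members the changes of the 2 experiments had a correlation of -0.273, against 0.35 over all genes. With all arrays forced to a common distribution, experiment 2 alone still gave 76 members higher and 6 lower (41.6% and 37.9% of all genes), with a median of 0.10.

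**Figure D2:**
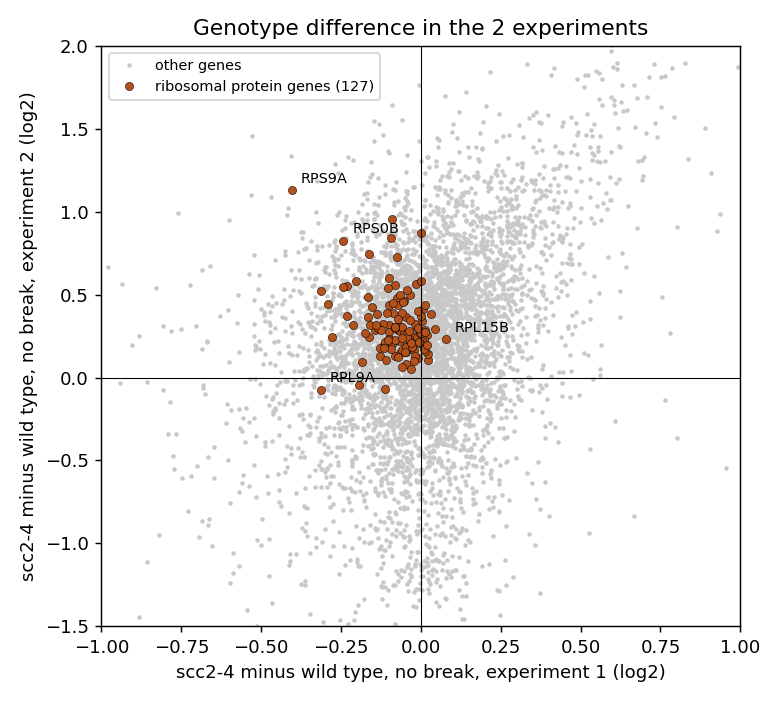
Log2 change of scc2-4 against wild type without a break in experiment 1 (x axis) and experiment 2 (y axis) for the 127 ribosomal protein genes (filled) and all other genes (grey); 95 other genes lie outside the axes. Of the 127 members, 110 lie left of 0 in experiment 1 and 124 above 0 in experiment 2; their signs are not independent of each other.

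Among the large-subunit genes 15 of 70 fell, beside 17.9% of all genes. RPL9A, which encodes a protein near the base of the stalk, read 12.71, 12.67 and 12.88 in wild type and 12.41, 12.43 and 12.48 in scc2-4 in experiment 1. The groups did not overlap, and the change was -0.29 ± 0.06 (SE; limma adjusted p = 0.000301). In experiment 2 RPL9A read 13.01 to 13.11 in wild type and 12.94 to 13.01 in scc2-4, a change of -0.07. It was the only one of the 29 that was also below 0 there, and the only one that still passed as lower with the additive term (-0.18, adjusted p = 0.00586).

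RPL6B, a copy of another large-subunit protein, read 12.14, 12.09 and 12.39 in wild type and 11.81, 11.85 and 12.03 in scc2-4 in experiment 1. The groups did not overlap, and RPL6B changed by -0.28 ± 0.08 (limma adjusted p = 0.00763), and by 0.52 in experiment 2. RPL22A, the major copy of the Rpl22 gene, read 13.18, 13.14 and 13.36 against 12.92, 13.01 and 13.11, with no overlap, and changed by -0.22 ± 0.06 (limma adjusted p = 0.00459). RPL5, whose protein carries a small rRNA into the particle, fell by 0.09 ± 0.03 (SE), and RPL10, a protein added late in the cytoplasm, fell by 0.06 ± 0.02 (limma adjusted p = 0.0231). RPL30, whose protein limits its own splicing, did not pass (-0.02 ± 0.03), nor did RPL3 (0.01 ± 0.02).

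Among the small-subunit genes 13 of 52 fell, beside 17.9% of all genes. RPS14B, the minor copy for a platform protein of the small subunit, read 12.31, 12.33 and 12.53 in wild type and 11.98, 12.10 and 12.21 in scc2-4 in experiment 1. The change was -0.27 ± 0.07 (limma adjusted p = 0.00466), and the groups did not overlap. In experiment 2 it read 11.98 to 12.21 against 12.48 to 12.57, a change of 0.44 in the other direction.

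RPS22B read 12.01, 11.93 and 12.28 against 11.70, 11.75 and 11.94 in experiment 1, where the groups overlapped, and changed by -0.26 ± 0.09 (limma adjusted p = 0.0199). RPS22B did not pass without replicate 3 of wild type (-0.21, adjusted p = 0.0754) or replicate 1 or 2 of scc2-4 of experiment 1. RPS1A and RPS7B each changed by -0.23 ± 0.07, and RPS1A had no overlap in experiment 1. Both copies of RPS0, a protein on the solvent side of the small subunit, fell: RPS0A by 0.21 ± 0.08 and RPS0B by 0.23 ± 0.09 (limma adjusted p = 0.0349 and 0.0499). RPS7B did not pass without replicate 3 of wild type (-0.19, adjusted p = 0.0512) or replicate 1 of scc2-4 (-0.18, adjusted p = 0.0529). RPS0B no longer passed in 17 of the 27 fits that each left out 1 array. RPS9A had the largest change of any member, -0.33 ± 0.16, and did not pass (adjusted p = 0.108), as its arrays also had the widest spread (residual SD 0.221 against a median of 0.0564).

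**Figure D3:**
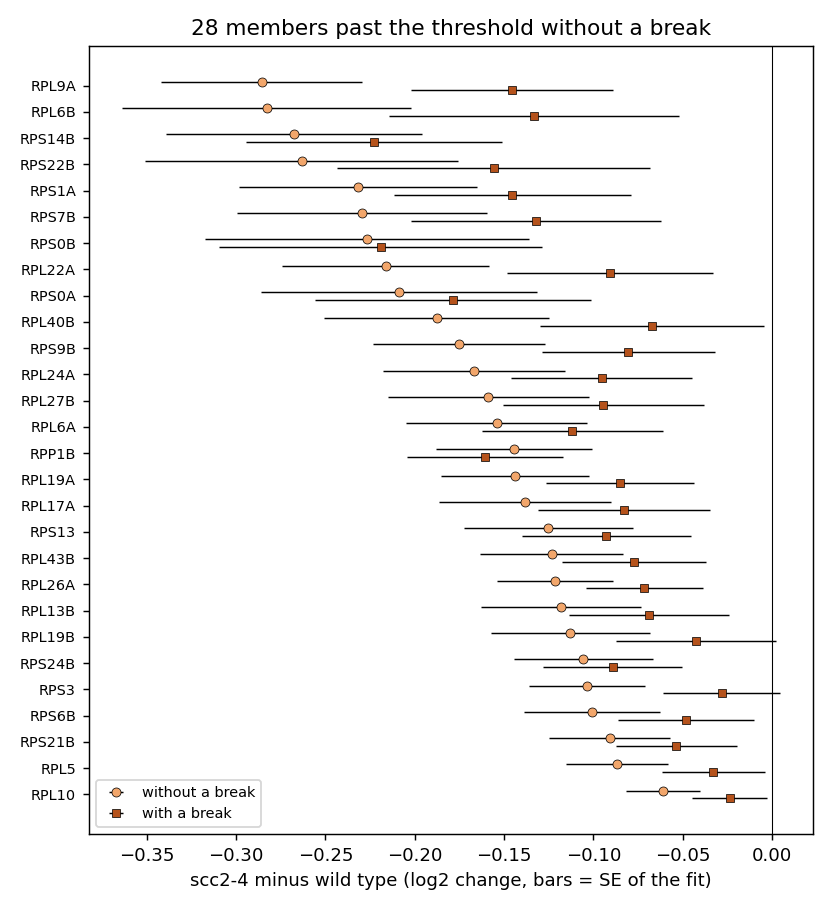
Change of scc2-4 against wild type without a break (circles) and with a break (squares) for 28 of the 29 members called lower without a break, on a log2 scale with bars for 1 SE of the fit. The circles lie left of 0 because only members called lower are shown, and the squares, from the same fit, do so too. The lowest point is at -0.29 (RPL9A without a break) and the highest at -0.02 (RPL10 with a break). In experiment 2 alone, 28 of the 29 were above 0 without a break.

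Of the 5 stalk genes, RPP1B fell by 0.14 ± 0.04 (limma adjusted p = 0.0107). RPP0, the anchor that ties the stalk to the large subunit, changed by -0.06 ± 0.03 and did not pass (adjusted p = 0.0588). RPP1A, RPP2A and RPP2B, which form the acidic dimers with RPP1B, changed by 0.01, -0.05 and -0.0002 and did not pass. Of the 3 genes that encode a ribosomal protein fused to ubiquitin, RPL40B fell by 0.19 ± 0.06 (limma adjusted p = 0.0205), while RPL40A (0.01 ± 0.03) and RPS31 (-0.04 ± 0.03) did not pass.

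The subsets had similar medians: -0.06 for the large subunit, -0.07 for the small subunit and -0.05 for the stalk. Of the B copies 16 of 55 fell, of the A copies 9 of 54 and of the single-copy genes 4 of 18. Members with a probe set of their own fell in 28 of 105 cases, and members read by a probe set shared with another transcript, usually the paralogue, in 1 of 22. By the same rule 17.9% of all genes were lower. None of these differences between subsets was tested. The changes ran with level, with a median of -0.08 in the 42 members of lowest level and -0.04 in the 42 of highest level. The rank correlation of level and change was 0.291 in experiment 1 and -0.36 in experiment 2. Residual SD was lower at higher level (rank correlation -0.792). Among the 14 members with a further probe set, the other probe set was below 0 in 14 cases and the chosen one in 11, with medians of -0.07 and -0.01, and none of the others passed.

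With a break, 4 of 127 members (3.15%) were lower in scc2-4 and none higher by limma, while 20.4% of all genes were lower and 22.3% higher, and 14 members had an unadjusted p under 0.05 (50.1% of all genes). Among the 4 were RPS14B (-0.22 ± 0.07), RPP1B (-0.16 ± 0.04) and RPL9A (-0.15 ± 0.06), and all 4 were also called without a break. In experiment 1 with a break RPP1B read 13.08, 13.21 and 13.19 in wild type and 12.94, 13.03 and 13.06 in scc2-4, with no overlap. It was the 1 member below wild type without overlap there (19.6% of all genes), and 6 members were above wild type without overlap (22.1% of all genes). RPL9A read 12.66, 12.72 and 12.83 against 12.52, 12.65 and 12.69, with overlap, and its call was lost without 1 array in 14 of 27 cases. The median member change was -0.0012, and the 2 genotype comparisons were not shown to differ, since no member passed the interaction test below. The count of 4 ranged from 1 to 17 as single arrays were left out. It was 1 without replicate 2 or replicate 3 of wild type with a break or replicate 1 of scc2-4 with a break, all of experiment 1, and 17 without replicate 3 of the last group. In experiment 2 alone 124 members were called higher (58.8% of all genes), and the additive term gave 88 (43.1% of all genes).

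The break itself moved no member past the threshold in either genotype by limma. In wild type 7.91% of all genes were higher and 5.63% lower after a break, and 0 of 127 members passed in either direction, with 5 at an unadjusted p under 0.05 (27.5% of all genes). The median member change was -0.04, with 124 below 0. The lowest was RPL22B at -0.14 ± 0.07 (adjusted p = 0.2), whose change was 0.0037 in experiment 1 and -0.26 in experiment 2. The 2 experiments differed in the same way over the whole list. The median of 0.01 of experiment 1 stood beside one of -0.09 in experiment 2, where all 127 members were below 0, 41 were called lower (12.6% of all genes) and 68 had no overlap (14.9% of all genes).

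In scc2-4 the break left 0 of 127 members called, with 1 at an unadjusted p under 0.05 (23.2% of all genes), while 3.53% of all genes were higher and 3.24% lower. The median change was 0.01. In experiment 1 all 127 members were above 0 (median 0.07), 16 of them with no overlap (11.1% of all genes). In experiment 2 121 were below 0 (median -0.04), 36 with no overlap (12% of all genes) and 1 called lower (5.83% of all genes). The break effect in scc2-4 minus that in wild type had a median of 0.05 and was above 0 for 124 members, and 0 passed (1.29% of all genes higher, 1.27% lower; 6 members and 17.4% of all genes with an unadjusted p under 0.05). The members share array-to-array variation, so their signs are not independent of each other.

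Differences between paralogues remove what the copies share equally on an array. They do not remove a processing difference that depends on the level of a probe set. For each of the 50 pairs the A value minus the B value was taken per array and fitted together with all genes, which gave a median SE of 0.0398 per pair, below the 0.0489 of single members. Without a break 14 of 50 pairs (28%) differed between the genotypes in their A-minus-B difference, beside 38.5% of everything fitted. In 11 the A copy went up relative to the B copy and in 3 down. With a break 15 pairs (30%) passed, beside 42.5%. Pairs with their own probe sets made up 13 of the 14, of 37 such pairs, and only 1 of the 13 pairs with a shared probe set passed. A shared probe set may read both copies and so shrink the A-minus-B difference. The contrast therefore does not show that those copies changed alike. In 18 pairs exactly 1 copy had been called lower without a break, in 3 both and in 29 neither.

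**Figure D4:**
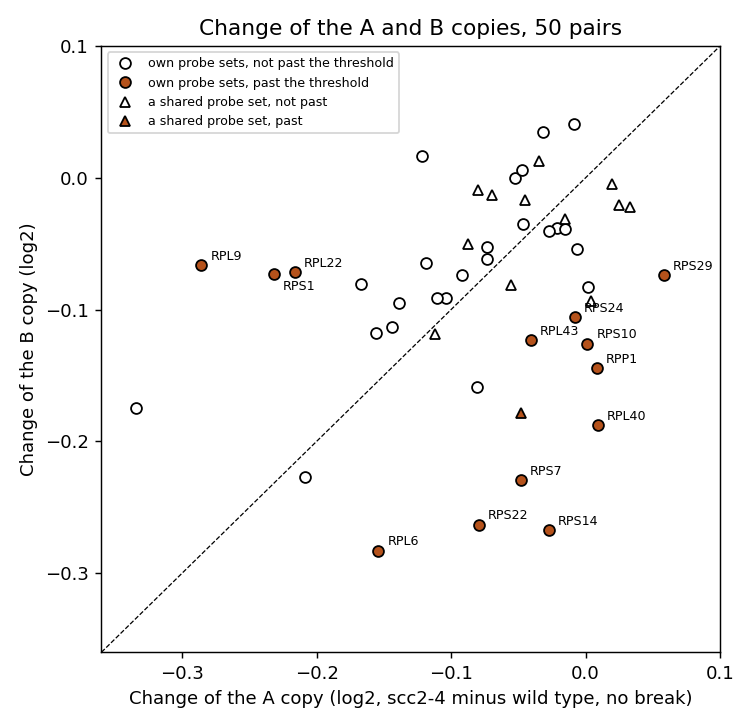
Log2 change of the B copy against that of the A copy, scc2-4 minus wild type without a break, for 50 pairs. Filled points passed the test of the A-minus-B difference (14 pairs, 13 of them named), triangles mark the 13 pairs with a shared probe set, and the dashed line marks equal change; 11 of the filled points lie below the line and 3 (RPL9, RPL22, RPS1) above it.

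Of the 14 pairs, 6 had the same sign in both experiments: RPL9, RPL22, RPL40, RPS10, RPS22 and RPS24. Lack of overlap was common in experiment 2, where A minus B was higher in scc2-4 without overlap in 14 of all 50 pairs and lower in 17. In experiment 1 these counts were 12 and 5. The scc2-4 arrays of experiment 2 have a processing set of their own. Signs and lack of overlap there, for this and the following pairs, are a description and not separate support. RPL9 A minus B was 0.32, 0.28 and 0.27 in wild type and 0.07, 0.08 and -0.01 in scc2-4 in experiment 1, and 0.68 to 0.81 against 0.19 to 0.31 in experiment 2. Neither experiment had any overlap, and the change was -0.22 ± 0.04 (limma adjusted p = 0.000251), with -0.51 in experiment 2. RPL9A and RPL9B encode nearly the same protein.

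RPL22 A minus B was 1.84, 1.88 and 1.73 in wild type and 1.67, 1.72 and 1.70 in scc2-4 in experiment 1. In experiment 2 it was 1.74 to 1.86 against 1.22 to 1.35. The genotypes did not overlap in either experiment, and the change was -0.14 ± 0.05 (limma adjusted p = 0.0148), with -0.52 in experiment 2. With a break the change was -0.17 ± 0.05 (limma adjusted p = 0.00383). Of the copies, RPL22B, the minor one that Rpl22 protein holds back through its intron, changed by -0.07 ± 0.09 without a break and did not pass.

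RPS10 A minus B, for a protein of the small-subunit head, was 0.55, 0.49 and 0.58 in wild type and 0.68, 0.63 and 0.63 in scc2-4 in experiment 1. In experiment 2 it was 0.35 to 0.63 against 1.16 to 1.28. There was no overlap in either experiment, and the change was 0.13 ± 0.05 (limma adjusted p = 0.0385), with 0.76 in experiment 2.

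RPL40 A minus B was 0.63, 0.70 and 0.66 against 0.89, 0.86 and 0.80 in experiment 1 and 0.64 to 0.72 against 0.74 to 0.89 in experiment 2, again with no overlap. Its change was 0.20 ± 0.04 (limma adjusted p = 0.000728) without a break, while with a break it was 0.09 ± 0.04 and did not pass (adjusted p = 0.0981). RPS22 A minus B was 0.52, 0.59 and 0.58 against 0.79, 0.79 and 0.73 in experiment 1 and 0.25 to 0.34 against 0.38 to 0.45 in experiment 2. Its groups did not overlap, and the change was 0.18 ± 0.04 without and 0.21 ± 0.04 with a break (limma adjusted p = 0.000689 and 0.00011). RPS24 changed by 0.10 ± 0.03 (limma adjusted p = 0.0156), with overlap in experiment 2.

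The other 8 pairs, among them RPL43, RPL6, RPP1, RPS1, RPS14, RPS29 and RPS7, had opposite signs in the 2 experiments. RPS14 A minus B was 1.24, 1.21 and 1.08 in wild type and 1.54, 1.45 and 1.34 in scc2-4 in experiment 1, a change of 0.24 ± 0.06 in the fit (limma adjusted p = 0.00229). In experiment 2 it was 1.43 to 1.65 against 1.22 to 1.33, a change of -0.26, so each experiment had no overlap but in opposite directions. RPP1, for the P1 proteins of the stalk, changed by 0.15 ± 0.04 (limma adjusted p = 0.00766), at 0.17 and -0.16 in the 2 experiments.

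**Figure D5:**
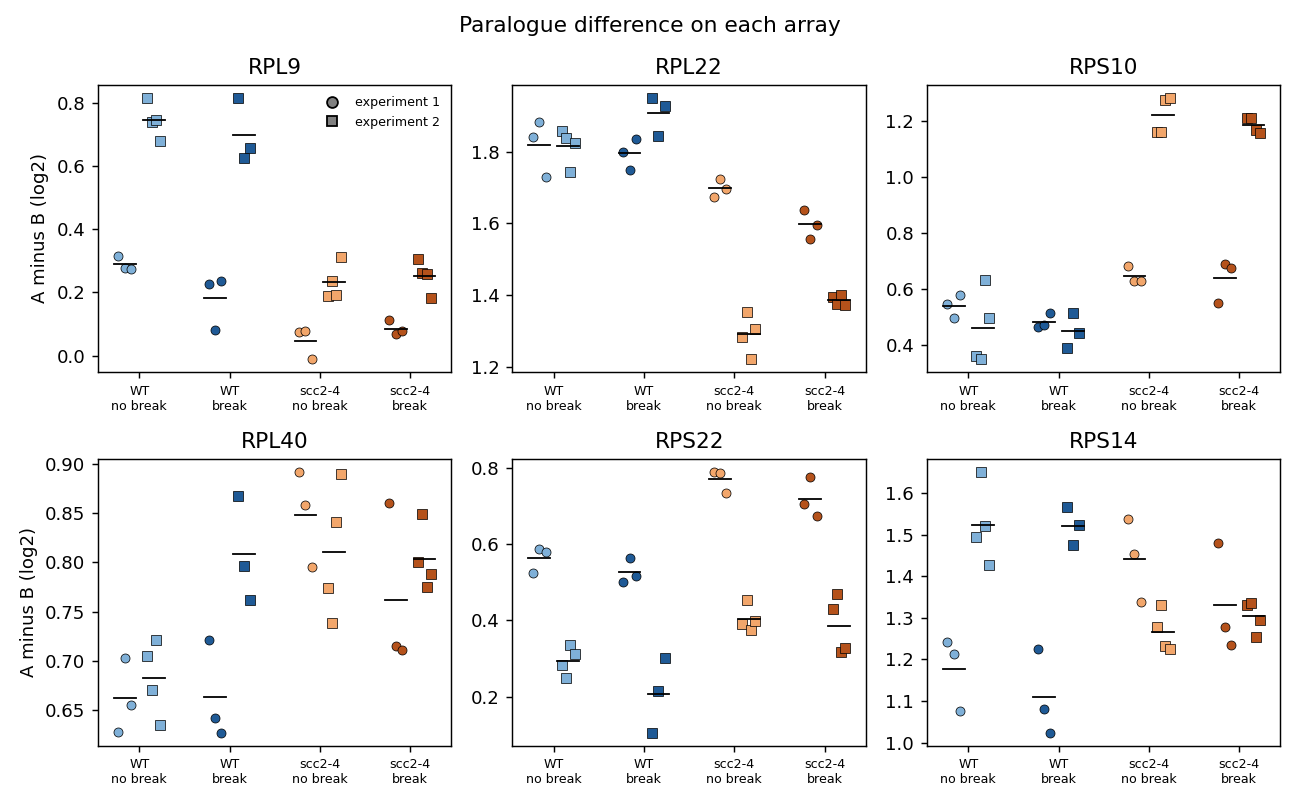
A-minus-B difference (log2) on each array for 6 pairs, by group, with experiment 1 as circles, experiment 2 as squares and a line at each mean. RPL9 and RPL22 are lower, and RPS10 and RPS22 higher, in scc2-4 without a break in both experiments, while RPS14 is higher in experiment 1 and lower in experiment 2.

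Of the pairs called, 11 passed in both genotype comparisons and had the same sign in each; these comparisons share the model and are not independent. RPS28 passed with a break, with 0.19 ± 0.04 (limma adjusted p = 0.0012) against 0.08 ± 0.04 without (adjusted p = 0.133), which did not pass, and was at -0.27 in experiment 2 with a break. RPL26, another large-subunit protein, also passed with a break (-0.16 ± 0.06; limma adjusted p = 0.0231). Of all 50 pairs the correlation between experiments was -0.151 without and 0.122 with a break.

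The break changed the balance in few pairs. In wild type 2 of 50 passed (4%, beside 13.5% of everything fitted). That count was 0 without replicate 3 of wild type with a break of experiment 2 and 4 without replicate 2 of wild type without a break of experiment 1, and it was 1 without replicate 1 with a break or replicate 3 without one in experiment 1, or without replicate 1 or 2 with a break or replicate 1, 3 or 4 without one in experiment 2. The RPL6 call was lost without 1 array in 8 of 27 cases and the RPS27 call in 3. RPS27 A minus B was -0.71, -0.70 and -0.74 without a break and -0.77, -0.81 and -0.81 with one in experiment 1, and -0.71 to -0.69 against -0.80 to -0.74 in experiment 2. The groups overlapped in neither, and the change was -0.08 ± 0.02 (limma adjusted p = 0.0274). RPL6 changed by 0.11 ± 0.03 (limma adjusted p = 0.035), with 0.08 and 0.14 in the experiments. In scc2-4 only RPS28 passed (2%, beside 6.75%), with 0.14 ± 0.03 (limma adjusted p = 0.0158) and 0.09 and 0.17 in the experiments. No pair passed the interaction (2.63% of everything fitted).

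A further 3 lists concern the same machinery. Of 7 dedicated chaperones, which escort single ribosomal proteins, 3 fell in scc2-4 without a break and none rose, where 17.9% of all genes were lower and 20.7% higher. ACL4, the partner of Rpl4, changed by -0.29 ± 0.07, RRB1, the partner of Rpl3, by -0.30 ± 0.11, and YAR1, the partner of Rps3, by -0.13 ± 0.04 (limma adjusted p = 0.00204, 0.0334 and 0.00632). The list's median was -0.21, all 7 were below 0, and in experiment 2 all 7 were above 0, ACL4 and RRB1 at 0.47 and 0.54. With a break 4 fell (20.4% of all genes), SQT1, the partner of Rpl10, in addition (-0.27 ± 0.10). BCP1, the partner of Rpl23, fell after a break in wild type (-0.14 ± 0.04; limma adjusted p = 0.023), with -0.02 and -0.25 in the experiments, and its call was lost without 1 array in 5 of 27 cases.

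Of 28 translation factors and ribosome-bound proteins 8 fell and none rose without a break, beside 17.9% and 20.7% of all genes. RLI1, an ATPase that recycles ribosomes, changed by -0.45 ± 0.07 and TIF4631, an eIF4G, by -0.23 ± 0.06 (limma adjusted p = 1.33e-05 and 0.00407), with 0.47 and 0.36 in experiment 2. With a break 2 rose and 4 fell, beside 22.3% and 20.4% of all genes. RLI1 was also lower after a break in wild type, by 0.26 ± 0.05 (SE) and at -0.26 and -0.25 in the experiments. SSB2, a ribosome-bound Hsp70, fell there by 0.15 ± 0.04 (SE), a call lost without 1 array in 6 of 27 cases. TIF4632, the other eIF4G gene, fell there by 0.14 ± 0.03 (SE) and passed the interaction (0.21 ± 0.04; limma adjusted p = 0.00971).

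Of 13 regulators of ribosomal protein gene transcription 1 rose and 1 fell without a break, beside 20.7% and 17.9% of all genes. RAP1 changed by -0.17 ± 0.06 (limma adjusted p = 0.0204), at -0.17 and -0.19 in the 2 experiments, and TOR1 by 0.13 ± 0.04, with 0.16 and 0.31. These 2 had the same sign in both experiments. With a break 2 rose and 3 fell, beside 22.3% and 20.4% of all genes. ABF1, which binds a few of these promoters, changed by 0.16 ± 0.04 among those that rose and the corepressor CRF1 by -0.31 ± 0.12 among those that fell, a call lost without 1 array in 18 of 27 cases. ABF1 fell after a break in wild type (-0.18 ± 0.04) and passed the interaction (0.21 ± 0.05; limma adjusted p = 0.0206). IFH1, the coactivator at these promoters, fell after a break in scc2-4 (-0.16 ± 0.04; limma adjusted p = 0.0241).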

How the data were processed

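RNA of 27 samples was hybridised to Affymetrix Yeast Genome 2.0 arrays. The values are log2 expression values per probe set as deposited by the authors; the submitters' processing notes name RMA and R 2.9.2, and which arrays were normalised together is not given in the sources used here. RMA gives arrays normalised together a common distribution, so a shift of all genes within a set is not seen. Of 5684 probe sets 5468 had 1 symbol and 216 none, and the probe set of highest mean was kept for each of 5434 genes. Groups, experiments and replicates came from the labels, which call the replicates biological. limma 3.58.1 in R 4.3.3 fitted the 4 groups with the processing set as a term to all genes (and to the A-minus-B difference of each of 50 pairs in 1 table), with Benjamini-Hochberg adjustment. The fit was tested on simulated data with errors drawn independently for each gene and array. The planted changes were larger than the called changes of the members. That test therefore does not cover small changes in members that vary together. Alternatives changed the term for experiment, the experiments used, scaling, filter, probe sets, weights, variance trend and replicate block, or left out 1 array. The members and all lists were chosen with earlier results of these data known. Named genes were the largest called changes per comparison, a fixed set of stalk, ubiquitin-fusion and autoregulated genes, and up to 2 genes per further list and comparison (the rule allowed 4). SQT1, YAR1, RPS0A, RPL5, RPL3, RPS9A, RPL41A, RPL15B, RPL22B and the RPS10 and RPS24 pairs were added after their values were seen. Some members of the counts are not reported here by name. The number of arrays limits the precision.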

Additional observations from a re-analysis of the deposited data

Results flagged for a closer look

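Within each group, over both experiments together, the highest or lowest array was set against the others for the named members and pairs, 128 groups in all. The cutoffs are such that about 1 in 20 groups would pass if its arrays came from 1 normal distribution, and 7 passed here. Each group pools 2 experiments that differ in processing set, and the groups share arrays. That rate therefore need not hold, and the 7 are given as a description. RPS22B read 11.945 on wild-type replicate 1 with a break of experiment 1, below the next at 12.139. RPS7B read 12.846 on wild-type replicate 3 without a break of experiment 1, with the next at 12.61, and RPP2A read 13.659 on the same array, with the next at 13.593. The RPS27 A-minus-B difference was -0.743 on that array, with the next at -0.713. RPL40B read 12.722 on scc2-4 replicate 1 with a break of experiment 1, with the next at 12.935, and the RPS14 A-minus-B difference was 1.48 there, with the next at 1.335. The RPS7 A-minus-B difference was 0.363 on wild-type replicate 4 without a break of experiment 2, with the next at 0.215. The calls on RPS7B and RPS22B without a break were lost when wild-type replicate 3 of experiment 1 was left out (-0.19, adjusted p = 0.0512, and -0.21, adjusted p = 0.0754).

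The effect of the break differed between the genotypes by the interaction term for 2 genes of the further lists, ABF1 (0.2128) and TIF4632 (0.2058), and for no ribosomal protein gene.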

How the results depend on the processing

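The genotype results without a break turned on how the experiments were combined. The counts below show how the calls moved between settings. The share of all genes called is not given beside each, so they are not read against it. A count that moved can therefore reflect a move over all genes, and is no result about the members or pairs. The 29 members lower became 1 with the additive term, 3 in experiment 1 alone, 0 in experiment 2 alone, 6 in experiment 2 alone after quantile normalization and 7 with quantile normalization and the additive term. The 0 higher became 66 with the additive term, 120 in experiment 2 alone, 2 with array weights, 76 in experiment 2 alone after quantile normalization and 16 with quantile normalization and the additive term. The median of -0.06 moved to 0.13, 0.28, 0.10 and 0.0297 under the additive term, experiment 2 alone, experiment 2 alone after quantile normalization and the additive term after it. The 14 pairs became 23 with the additive term, 8 in experiment 1 alone, 33 in experiment 2 alone, and 34 and 23 in the quantile-normalized forms of experiment 2 alone and of the additive term. With a break, the 4 lower became 0 with the additive term and in each experiment alone, 10 with arrays centred, 13 with array weights and 2 with quantile normalization and the additive term. The 0 higher became 88, 124, 89 and 45 under the same 4 settings, 5 with array weights and 1 with quantile normalization or an intensity trend. The median of -0.0012 moved to 0.17, 0.33, 0.15 and 0.0693 under these 4 settings, and the 15 pairs became 26, 35, 38 and 28, and 8 in experiment 1 alone. For the break in wild type, the 0 lower became 41 in experiment 2 alone, 49 there after quantile normalization and 13 with array weights, and the median moved to 0.0129 in experiment 1 alone. The 2 pairs became 4 in experiment 2 alone, with array weights and with the trend, 7 in experiment 2 alone after quantile normalization, and 0 with either additive term and in experiment 1 alone. For the break in scc2-4, the 0 lower became 1 in experiment 2 alone, with and without quantile normalization, and with array weights. The median moved to 0.0748 in experiment 1 alone, and the 1 pair became 4 with array weights and 0 with either additive term and in experiment 1 alone. The interaction gave 1 member higher and 3 pairs with array weights. The 2 settings that combine quantile normalization with another choice were chosen after seeing the data.

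Leaving out 1 array at a time gave 10 to 37 members lower without a break and 1 to 17 with a break, 0 to 1 higher with a break, 0 to 1 lower after a break in wild type, and 0 to 4 pairs after a break in wild type. The 4 pairs came without replicate 2 of wild type without a break of experiment 1, and the 0 without replicate 3 of wild type with a break of experiment 2. The member median without a break ran from -0.0861 to -0.0351. Other counts stayed within 1.5 times their value and other medians within the spread between arrays, though the medians near 0 crossed it with a break (-0.0262 to 0.0194) and for the break in scc2-4 (-0.0036 to 0.0206). No named value turned its sign. Calls lost in at least 5 of the 27 fits were RPS0B (17), the RPL6 pair (8), BCP1 (5) and SSB2 (6) in their comparisons, and RPL9A (14) and CRF1 (18) with a break.

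With experiment as the additive term, the sign turned without a break for 15 values, RPL6B (0.17), RPS14B (0.13), RPS22B (0.0202), RPS1A (0.11), RPS7B (0.21), RPS0B (0.37), RPL22A (0.0903), RPS14A/RPS14B (-0.0334), RPP1A/RPP1B (-0.0152), RRB1 (0.17), ACL4 (0.15), RLI1 (0.0426), TIF4631 (0.0877), RPP1B (0.11) and RPL10 (0.0544). With experiment as the additive term, the sign turned with a break for 8 values, RPS14B (0.15), RPP1B (0.0792), RPS14A/RPS14B (-0.0091), RPS28A/RPS28B (-0.0554), RRB1 (0.0854), ACL4 (0.13), TIF4631 (0.0815) and RLI1 (0.27). In experiment 2 alone, the sign turned without a break for 18 values, RPL6B (0.52), RPS14B (0.44), RPS22B (0.24), RPS1A (0.37), RPS7B (0.55), RPS0B (0.83), RPL22A (0.32), RPS14A/RPS14B (-0.26), RPS7A/RPS7B (-0.0939), RPS1A/RPS1B (0.0643), RPP1A/RPP1B (-0.16), RRB1 (0.54), ACL4 (0.47), RLI1 (0.47), TIF4631 (0.36), RPP1B (0.32), RPL40B (0.095) and RPL10 (0.15). In experiment 2 alone, the sign turned with a break for 11 values, RPS14B (0.46), RPP1B (0.28), RPL9A (0.0337), RPS14A/RPS14B (-0.22), RPP1A/RPP1B (-0.0719), RPS28A/RPS28B (-0.27), RPS29A/RPS29B (-0.0108), RRB1 (0.47), ACL4 (0.51), TIF4631 (0.31) and RLI1 (0.62). Values joined by a stroke are A-minus-B differences. The signs of RPL9, RPL22, RPL40 and RPS22 pairs and of RAP1 and TOR1 without a break were kept in both. The cause was not tested.

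Same-numbered arrays did not all deviate together, and the main fit did not read the replicate numbers as pairs. Their deviations correlated over 0.1 in 14 of 18 combinations in experiment 1 and 11 of 21 in experiment 2. Different-numbered arrays did so in 12 of 36 and 23 of 63. The median correlation was 0.578 for same and -0.516 for different numbers in experiment 1, and 0.164 and -0.0133 in experiment 2. Of 27 arrays, 9 correlated best with an array of their own number. In experiment 1, on which the genotype difference rests, most same-numbered arrays thus deviated together. The main fit has no term for the replicate number, so it leaves that shared variation in its error. With the replicate number as a block, 32 members were lower without a break, and 10 were lower and 1 higher with a break. The shares of all genes by that fit are not given here, so these counts show only how the calls moved. A comparison of promoter motifs and protein sequences was not run because no sequence table was used here. With 3 or 4 arrays per group and experiment, the number of arrays limits what these values can show.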
